A study of Mus musculus with 9 samples.

Results

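Cultured perivascular adipose-derived stem cells (PVASCs) were compared with subcutaneous adipose-derived stem cells (Sub-ASCs) by bulk mRNA sequencing. The 6 libraries of this comparison, 3 PVASC and 3 Sub-ASC, are 6 of the 9 in the series, chosen by the tissue named in their labels, and the other 3 came from abdominal adipose tissue. No treatment or modification of the cells is named. All were taken from C57BL/6 mice, were released from the tissue with collagenase and dispase, and were grown in the same serum-rich stem cell medium with recombinant human leukaemia inhibitory factor and FGF. The sources do not give the age or sex of the mice or the artery that bore the perivascular fat. Nor do they say whether tissue was pooled, or whether the 3 libraries of a group were separate animals or cultures. The p-values below therefore rest on the spread between libraries within groups, which may be technical. That spread was pooled over all 9 libraries, the abdominal ones included. The cells were harvested at passages 3 to 6, and the passage of each group or library is not given. No sort before sequencing is described, so each library is the average of whatever the dish held. In such bulk RNA, fewer cells of a type and less RNA per cell cannot be told apart.

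Fat lies in depots that differ in embryonic origin, and the stromal cells grown from them keep some of that history. Subcutaneous fat lies under the skin of the trunk and limbs, whereas perivascular fat wraps arteries next to their outer layer, where mural cells, endothelium, nerves and mesothelium are close by. The stem cell fraction is fibroblast-like, adheres to plastic, makes collagen-rich matrix and can turn into fat, bone and cartilage cells in culture, and that of perivascular fat has been studied as a source of vascular cells.

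Library totals were 27136829 to 29881036 counts in PVASCs and 23781019 to 26872579 in Sub-ASCs. Of the 54532 genes in the table, 16526 had enough reads to test. Levels are given as CPM (counts of a gene per 1e6 counts of its library), with library sizes scaled by the trimmed mean of M-values. Where a level is written as a ± b it is the mean ± SD of 3 libraries, and a log2 fold change is PVASC minus Sub-ASC ± its approximate standard error. A gene was called higher or lower at an adjusted p under 0.05 (edgeR, Benjamini-Hochberg). Transcripts of Ddx3y, a gene of the Y chromosome chosen after its values were seen, were at 62.6, 65.7 and 62.7 CPM in PVASCs and 50.2, 53.6 and 43.5 CPM in Sub-ASCs, so Y-linked transcripts were read in every library.

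The groups were far apart. Among the genes tested, 11628 (70.4%) were called, with 5735 (34.7%) higher and 5893 (35.7%) lower in PVASCs. With a log2 fold change of at least 1, 2591 (15.7%) were higher and 2737 (16.6%) lower, and the remaining 6300 calls were smaller than that. Without regard to the test, 12771 genes (77.3%) had 3 PVASC values all above or all below the 3 Sub-ASC values. The median log2 fold change over all genes tested was -0.01. With so broad a background, a list in which about 35% of members were higher and 36% lower does not stand out, and the lists below are read against those shares.

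**Figure D1:**
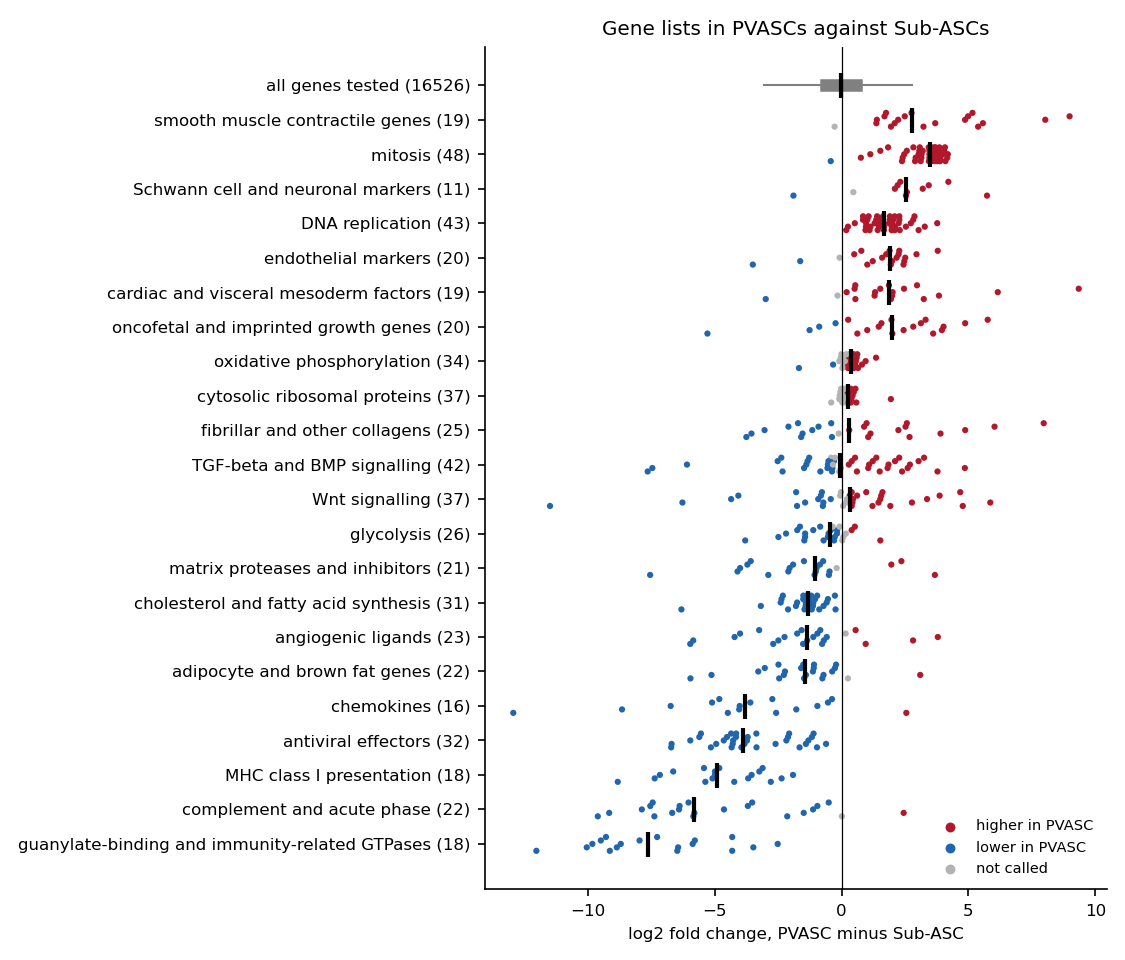
Log2 fold change of each tested member of 22 gene lists, PVASC minus Sub-ASC, with black ticks at list medians and the number tested in parentheses. Red points were called higher in PVASCs, blue points lower, grey points neither. Genes without a read in a group are drawn at their lower bound. The top row gives the middle 50% (thick) and 90% (thin) of all genes tested. Lists of contractile, mitotic and replication genes lie to the right and lists of interferon-linked and complement genes to the left.

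Surface markers of stromal stem cells were read in both groups. Of 18 mesenchymal surface markers, 9 were higher in PVASCs, 7 lower and 2 not called. Ly6a, which codes for Sca1, was at 107, 116 and 110.4 CPM in PVASCs and 2138, 1919 and 2090.0 CPM in Sub-ASCs. It was 18.4-fold higher in Sub-ASCs (log2 fold change -4.20 ± 0.09, adjusted p = 9.36e-13), with no overlap between groups. Thy1 (CD90) stood the other way, at 874, 905 and 869.8 CPM in PVASCs and 332, 321 and 344 CPM in Sub-ASCs, and so did Eng (CD105), at 328 ± 10.6 against 108 ± 4.48 CPM. Pdgfra, the receptor that marks fibroblast and adipose progenitors, was at 332 ± 3.49 CPM in PVASCs and 2709 ± 84.0 in Sub-ASCs. The pan-leukocyte gene Ptprc (CD45) was low in both groups, at 2.81 ± 0.476 and 8.94 ± 1.01 CPM.

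Genes of the interferon response were low in PVASCs and high in Sub-ASCs. Interferons bind paired receptors and act through JAK kinases on STAT factors, which with IRF factors switch on antiviral proteins, guanylate-binding GTPases and the antigen presentation machinery. The ligands were low. Ifng, the gene of interferon gamma, was at 0, 0.576 and 0 CPM in PVASCs and 2.75, 1.93 and 2.14 CPM in Sub-ASCs, and Ifnb1 and Ifnl2 had too few reads to test. All 3 Sub-ASC values of Ifng were above the PVASC values, 2 of which were at 0 reads, and with DESeq2 the difference was not called (adjusted p = 0.21). The receptors did not all go in the same direction. Ifngr1 had a log2 fold change of -1.26 ± 0.05, Ifnar2 of -1.73 ± 0.07 and Ifnar1 of -0.68 ± 0.05, whereas Ifngr2 was higher in PVASCs at 0.71 ± 0.06.

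Of 16 signal transducers and IRF factors, 14 were lower in PVASCs, none was higher and 2 were not called, with a median log2 fold change of -1.99. Stat2, at chromosome 10, 128270559 to 128292849, plus strand of GRCm38, was at 21.6, 21.2 and 20.7 CPM in PVASCs and 286, 297 and 286 CPM in Sub-ASCs. The Sub-ASC level was 13.7-fold higher, far outside the spread of either group (log2 fold change -3.77 ± 0.05, adjusted p = 4.01e-14). Irf7, the factor that amplifies type I interferon, had a log2 fold change of -5.12 ± 0.13, and Irf1, the first responder to interferon gamma, of -4.38 ± 0.08. The feedback inhibitors Socs1 (-3.42 ± 0.10) and Usp18 (-3.51 ± 0.10) followed. The kinases differed less, at -1.64 ± 0.06 for Jak1 and -0.50 ± 0.07 for Tyk2. The 2 members not called were Irf3, the factor that acts before interferon is made, at 33.8 ± 1.39 against 30.3 ± 3.26 CPM, and Irf5. In the fit of the 2 groups alone, Irf3 was called higher in PVASCs (adjusted p = 0.0432).

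Every one of the 32 antiviral effectors was lower in PVASCs, with log2 fold changes from -6.72 to -0.61 and a median of -3.89. The oligoadenylate synthetases, which sense double-stranded RNA, led the list. Oas2 was at 0.642, 0.475 and 0.891 CPM in PVASCs and 72.8, 73.7 and 67.8 CPM in Sub-ASCs. Oas3 had a log2 fold change of -6.70 ± 0.20. Zbp1, a sensor of left-handed nucleic acid, had -5.55 ± 0.13 and the ubiquitin-like modifier Isg15 -3.36 ± 0.12. The smallest differences were those of Ifit2 at -0.97 ± 0.14 and Ifi27 at -0.61 ± 0.10.

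The guanylate-binding proteins and immunity-related GTPases, which attack the vacuoles of intracellular microbes, had the lowest median of the interferon-linked lists. All 18 were lower in PVASCs, with a median log2 fold change of -7.62. Iigp1 was at 3.94, 3.56 and 3.88 CPM in PVASCs and 1565, 1719 and 1479.6 CPM in Sub-ASCs, a 419-fold difference. Gbp4 was at 469, 502 and 433 CPM in Sub-ASCs and had 10 reads in the 3 PVASC libraries together. Gbp10 was at 98.5, 113 and 94.6 CPM in Sub-ASCs and had no read in PVASCs, so it was at least 1059-fold higher in Sub-ASCs against 3 reads in each PVASC library. Gbp2 (-4.31 ± 0.07) and Irgm1 (-3.48 ± 0.06) kept a clear level in PVASCs, at 58.0 ± 1.01 and 45.4 ± 1.79 CPM. Gbp and Irg genes are near-identical copies in clusters, and how reads shared between copies were assigned is not given in the sources used here, so values of copies such as Tgtp1 and Tgtp2 are uncertain, and 46.3% of the exon bases of Gbp10 are shared with the annotated gene Gm43302.

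Antigen presentation followed the same direction. Of 18 genes of MHC class I presentation, all were lower in PVASCs, with a median of -4.91. B2m, the light chain of class I molecules, was at 415, 401 and 429.5 CPM in PVASCs and 5225, 5621 and 5158 CPM in Sub-ASCs, and per length at 483 ± 16.4 against 6203 ± 291 FPKM, the CPM divided by gene length in kilobases, the largest drop in FPKM of any protein-coding gene. The heavy chain H2-K1 had a log2 fold change of -4.99 ± 0.08, the immunoproteasome subunit Psmb9 -7.37 ± 0.13, the peptide transporter Tap1 -4.82 ± 0.07 and the class I transactivator Nlrc5 -5.09 ± 0.09. All 9 class II genes tested were lower too. Cd74, the invariant chain, was at 29.3, 29.9 and 29.8 CPM in Sub-ASCs and 0.0611, 0.203 and 0 CPM in PVASCs, and the class II transactivator Ciita had a log2 fold change of -5.38 ± 0.18.

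**Figure D2:**
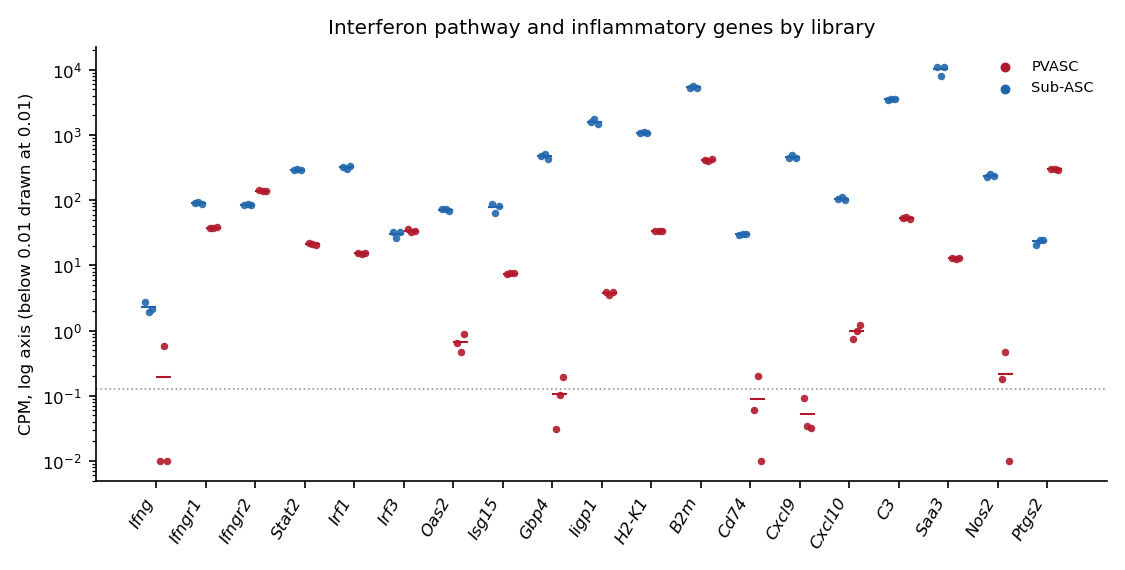
CPM of 19 genes in each PVASC (red) and Sub-ASC (blue) library on a log axis, ordered from ligand and receptors through transducers to effectors and inflammatory genes, with bars at group means. The dotted line is 3 reads in the shallowest of the 6 libraries. From Stat2 to Nos2 the PVASC points lie below the Sub-ASC points for each gene except Irf3, and for Ptgs2 they lie above.

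Promoters of these genes were searched for the interferon-stimulated response element (ISRE), spelled GAAANNGAAA on either strand, in RefSeq windows from 250 bases before to 50 after each start site (GRCm38.p6). The motif was in 3.44% of all 32851 promoters in the table, in 12 of 26 promoters (46.2%) of the antiviral effectors, in 9 of 11 (81.8%) of the GTPases and in 4 of 18 (22.2%) of the class I genes. Of the called members, 23 of 32, 10 of 18 and 16 of 18 had a promoter there. The gamma-activated site (TTCNNNGAA) was in 8.3% of all promoters, in 23.1% of those of the antiviral effectors, in 54.5% of those of the GTPases and in 11.1% of those of the class I genes. Among promoters of genes tested, the shares were 3.19% for the ISRE and 6.89% for the gamma-activated site. The following 100 bases, 1 for each kind of effector and a second of the Oas genes, are shown because they carry the motif in genes that parted the groups, and capitals mark the motif on either strand.
Oas3 (chr5:120777680-120777779, minus strand): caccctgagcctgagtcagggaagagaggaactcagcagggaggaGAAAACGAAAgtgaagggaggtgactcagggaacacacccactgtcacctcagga
Oas1g (chr5:120887614-120887713, minus strand): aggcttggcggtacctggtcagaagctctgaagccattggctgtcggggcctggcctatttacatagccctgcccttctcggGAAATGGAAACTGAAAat
Tgtp1 (chr11:48992269-48992368, minus strand): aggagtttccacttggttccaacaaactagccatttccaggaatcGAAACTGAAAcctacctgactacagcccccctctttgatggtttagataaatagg
B2m (chr2:122147503-122147602, plus strand): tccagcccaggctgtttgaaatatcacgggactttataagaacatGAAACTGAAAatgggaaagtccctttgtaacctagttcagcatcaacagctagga
In Oas1g, 2 overlapping matches are merged. A match says only that the letters are there.

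Of the chemokines that draw leukocytes, 15 of 16 tested were lower in PVASCs. Cxcl9, which draws T cells, was at 438, 494 and 445 CPM in Sub-ASCs and had 5 reads in all PVASC libraries together. Cxcl10 had a log2 fold change of -6.74 ± 0.16 and the eosinophil chemokine Ccl11 -4.04 ± 0.13. Cxcl12, which holds blood stem cells in their niche, was abundant in both groups, at 491 ± 4.79 CPM in PVASCs and 5946 ± 194 in Sub-ASCs. Ccl2 differed little (-0.38 ± 0.06). The membrane-bound chemokine Cx3cl1 was the tested member higher in PVASCs (2 members without the low-count filter), at 48.5, 48.7 and 49.8 CPM against 8.97, 8.41 and 7.70 CPM.

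Of 22 complement and acute-phase genes tested, 20 were lower in PVASCs, 1 was higher and 1 was not called. Saa3, the serum amyloid A of fat and inflamed stroma, was at 12.9, 12.7 and 12.9 CPM in PVASCs and 11066, 8105 and 10996 CPM in Sub-ASCs. The groups were 783-fold apart, and Sub-ASC replicate values differed among themselves far less than that. C3, the hub of the complement cascade, was at 53.2 ± 1.32 against 3489 ± 71.8 CPM, and C4b at 6.12 ± 0.0516 against 3510.2 ± 33.7 CPM. The early proteases C1ra (-5.85 ± 0.08) and C1s1 (-5.80 ± 0.07) and their inhibitor Serping1 (-6.39 ± 0.09) were lower as well. Cd59a, which blocks the terminal complex on the cell's own membrane, was the member higher in PVASCs (2.45 ± 0.12), and Cd55 was not called.

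Genes of NF-kB signalling and its cytokines were mixed, with 6 higher, 14 lower and 2 not called of 22. Inducible nitric oxide synthase, Nos2, was at 225, 247 and 232 CPM in Sub-ASCs and 0.183, 0.475 and 0 CPM in PVASCs. The alarmin Il33 was at 14.1 ± 0.552 against 662 ± 31.3 CPM. Cyclooxygenase 2, Ptgs2, stood the other way, at 299, 299 and 293 CPM in PVASCs and 20.6, 24.8 and 24.6 CPM in Sub-ASCs. The colony-stimulating factor Csf1, which macrophages need, was at 2668 ± 50.1 against 1026 ± 26.2 CPM, and Il6 (0.68 ± 0.08) and Lif (1.60 ± 0.06) were also higher in PVASCs.

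Markers of blood cells were read beside these genes, since such cells make and answer interferon. Of 15 macrophage and haematopoietic markers tested, 12 were lower and 3 higher in PVASCs, and the summed level of all 17 was 401 to 411 CPM in PVASCs and 376 to 385 CPM in Sub-ASCs. Cd68 was at 11.6 ± 0.607 against 32.8 ± 1.30 CPM and Adgre1 at 7.52 ± 0.674 against 13.8 ± 0.338 CPM, while Lyz2 was at 249 ± 3.03 against 163 ± 2.44 CPM. Mast cell genes, a list added after the data were seen, were read at clear levels in Sub-ASCs for the proteases that define the cell: Mcpt4 was at 35.8, 37.4 and 36.3 CPM, Cma1 at 41.0, 39.1 and 42.2 CPM and Mcpt2 at 42.2, 43.6 and 40.8 CPM, each without a read in the 3 PVASC libraries. Of that list, 15 of 16 tested were lower in PVASCs and 9 of 19 had no read there, and the summed level was 497 to 538 against 1338 to 1426 CPM, most of it from Cd63, which many cells make. Of 16 genes of T and natural killer cells, also added later, 7 could be tested, 6 were lower (13 without the low-count filter) and Trac was higher in PVASCs, and the summed level was 1.72 to 3.25 CPM in PVASCs and 18.3 to 20.9 CPM in Sub-ASCs. The part of these cells in the interferon and chemokine values was not tested.

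Genes of cell division were higher in PVASCs. Of 43 DNA replication genes, all were higher, with a median log2 fold change of 1.67, and 35 of them by at least 1. The helicase gene Mcm5 was at 64.7, 70.4 and 65.4 CPM in PVASCs and 9.66, 9.28 and 9.42 CPM in Sub-ASCs. The ribonucleotide reductase subunit Rrm2, which supplies DNA precursors, was at 113 ± 2.84 against 8.29 ± 0.923 CPM, and Pcna, the sliding clamp, at 121 ± 1.55 against 59.8 ± 3.62 CPM. The initiation kinase Cdc7 (0.25 ± 0.10, adjusted p = 0.0353) and the polymerase subunit Pola2 (0.18 ± 0.07, adjusted p = 0.0314) were the closest to the threshold, and both lost their calls when some of the libraries were left out in turn and without the low-count filter (adjusted p = 0.0502 and 0.0937), and Cdc7 also with the replicate block (adjusted p = 0.0558).

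Of 48 genes of mitosis, 47 were higher in PVASCs, with a median of 3.50. Ccnb1, the cyclin that drives entry into mitosis, was at 80.8, 80.9 and 82.4 CPM in PVASCs and 4.21, 5.82 and 4.42 CPM in Sub-ASCs, 16.9-fold apart (log2 fold change 4.07 ± 0.10, adjusted p = 1.53e-12). The proliferation antigen Mki67 was at 134, 143 and 142 CPM against 9.49, 12.7 and 10.1 CPM, again without overlap. The kinesin Kif23 (4.19 ± 0.15), the anillin gene Anln (4.16 ± 0.14) and the kinetochore kinase Bub1 (4.05 ± 0.19) were among the largest. The member that went the other way was the securin gene Pttg1, at 13.7 ± 0.790 against 18.5 ± 1.33 CPM.

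Genes around the control of the cycle were also higher in PVASCs in most cases, both those that drive it and those that hold it back. Of 29 cyclin D, CDK inhibitor and p53 target genes, 22 were higher in PVASCs, 5 lower and 2 not called. Ccnd1, the cyclin that links growth signals to the cycle, was at 526, 529.6 and 519 CPM in PVASCs and 31.0, 32.2 and 32.9 CPM in Sub-ASCs. Cdkn2a, whose products p16 and p19 hold the cycle, was at 46.6 ± 2.91 against 6.60 ± 0.211 CPM. Cdkn1a (1.13 ± 0.06), Mdm2 (1.20 ± 0.09) and Ccng1 (1.93 ± 0.14), all targets of p53, were higher too. Cdkn1c, an imprinted inhibitor of the cycle, was the large exception, at 0.825, 0.949 and 1.08 CPM in PVASCs and 35.2, 37.3 and 39.7 CPM in Sub-ASCs.

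**Figure D3:**
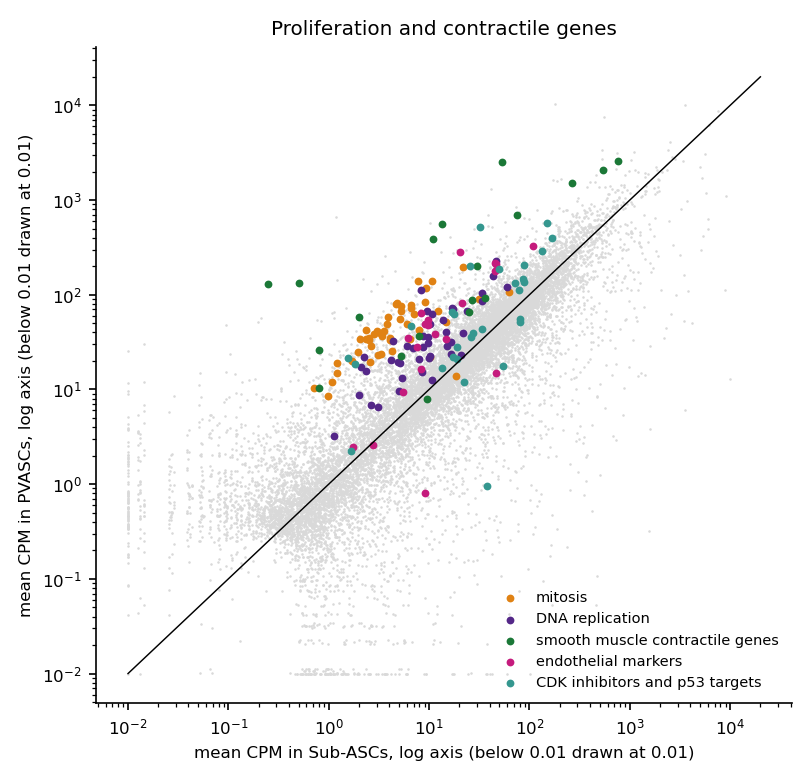
Mean CPM of 16526 genes in Sub-ASCs (horizontal) and PVASCs (vertical), both on log axes, with the line of equal level. Mitosis, replication and contractile genes lie above the line with Pttg1 and Synpo2 as exceptions, and the endothelial, p53 and CDK inhibitor genes lie on both sides of it.

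In the same promoter windows, E2F sites (TTTCCCGC, TTTGGCGC, TTTCGCGC or TTTGCCGC, either strand) were in 2.26% of all promoters, in 13 of 40 (32.5%) of those of the replication genes and in 3 of 41 (7.32%) of those of the mitosis genes. The cell cycle homology region (CHR, TTTGAA) was in 17.9% of all promoters, in 30 of 41 (73.2%) of those of the mitosis genes and in 17.5% of those of the replication genes. Among promoters of genes tested, the shares were 3.67% for E2F and 12.1% for the CHR. A promoter was found for 34 of 43 and 38 of 47 members called higher. The 4 windows below show the motif, in capitals on either strand, in 2 replication and 2 mitosis genes, with overlapping matches merged in Mcm5.
Mcm5, E2F (chr8:75109310-75109409, plus strand): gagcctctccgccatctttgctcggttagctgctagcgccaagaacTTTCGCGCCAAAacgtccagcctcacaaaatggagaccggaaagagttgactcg
Uhrf1, E2F (chr17:56304082-56304181, plus strand): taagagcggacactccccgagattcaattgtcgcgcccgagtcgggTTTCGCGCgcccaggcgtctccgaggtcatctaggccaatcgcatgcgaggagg
Kif2c, CHR (chr4:117178823-117178922, minus strand): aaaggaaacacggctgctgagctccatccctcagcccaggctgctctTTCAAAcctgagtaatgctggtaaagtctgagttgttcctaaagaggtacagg
Mki67, CHR (chr7:135716443-135716542, minus strand): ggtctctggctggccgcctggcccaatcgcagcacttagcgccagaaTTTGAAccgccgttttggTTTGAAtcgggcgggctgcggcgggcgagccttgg
Uhrf1, which keeps DNA methylation through replication, had a log2 fold change of 2.53 ± 0.07 and the kinesin Kif2c of 3.82 ± 0.13.

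The contractile apparatus of smooth muscle was strongly expressed in PVASCs. Of 19 contractile genes tested, 18 were higher in PVASCs and the remaining gene, Synpo2, was not called, with a median log2 fold change of 2.76. Synpo2 was called lower with the replicate block (log2 fold change -0.27, adjusted p = 0.0429) and in the fit of the 2 groups alone (adjusted p = 0.0224). Acta2, smooth muscle alpha-actin (chromosome 19, 34241090 to 34255336, minus strand), was at 2454, 2598 and 2464 CPM in PVASCs and 55.0, 49.4 and 53.8 CPM in Sub-ASCs. The PVASC level was 47.5-fold higher (log2 fold change 5.57 ± 0.09, adjusted p = 8.93e-14). Calponin, Cnn1, was at 128, 129.5 and 136 CPM in PVASCs and 0.0859, 0.314 and 0.343 CPM in Sub-ASCs, and gamma smooth muscle actin, Actg2, at 134 ± 4.67 against 0.501 ± 0.346 CPM. The tropomyosin Tpm2 (5.38 ± 0.09) and the light chain Myl9 (5.16 ± 0.10) were of like size. The heavy chain of differentiated smooth muscle, Myh11, was lower in level and differed less, at 36.8 ± 1.21 against 7.84 ± 0.300 CPM. Myocd, the coactivator of the contractile programme, had too few reads to test, at 0.181 ± 0.0770 and 0.133 ± 0.0177 CPM. Tagln was at 25.8 ± 2.33 against 0.799 ± 0.438 CPM, and 67.9% of its exon bases lie in exons of Pcsk7 and another gene on the opposite strand in GENCODE M21, so with unstated strand its level is uncertain.

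The cytoskeletal actins were among the 10 genes with the largest gains in FPKM. Actb was at 1174 ± 34.0 FPKM in PVASCs and 279 ± 7.61 in Sub-ASCs, and Tmsb4x, which holds actin monomers, at 1159.9 ± 40.3 against 138 ± 0.389 FPKM. The serum response factor that drives many actin genes, Srf, had a log2 fold change of 1.37 ± 0.06. Its binding motif, the CArG box, was in 3 of 16 promoters (18.8%) of the contractile genes and in 1.63% of all promoters (1.35% of those of genes tested), and a promoter was found for 15 of 18 members. The windows of Myl9 and of Srf itself, which carry the box in capitals, are given here.
Myl9, CArG (chr2:156775258-156775357, plus strand): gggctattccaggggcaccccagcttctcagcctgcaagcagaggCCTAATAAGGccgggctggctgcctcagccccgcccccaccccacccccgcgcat
Srf, CArG (chr17:46556190-46556289, minus strand): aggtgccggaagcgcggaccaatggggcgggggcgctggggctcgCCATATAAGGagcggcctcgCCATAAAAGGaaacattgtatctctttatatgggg

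Genes of pericytes, the mural cells of small vessels, and of the PDGF system were split, with 7 higher and 6 lower of 13. Cspg4 (NG2) was at 71.3, 74.3 and 72.2 CPM in PVASCs and 1.72, 1.22 and 1.49 CPM in Sub-ASCs, and Mcam had a log2 fold change of 2.58 ± 0.08. The potassium channel genes of brain and heart pericytes stood the other way: Abcc9 was at 0.459, 0.475 and 0.573 CPM in PVASCs and 102, 108 and 98.0 CPM in Sub-ASCs, and Kcnj8 had a log2 fold change of -3.91 ± 0.28. Among the ligands, Pdgfa (2.33 ± 0.09) and Pdgfb (1.61 ± 0.08) were higher in PVASCs and Pdgfd (-2.20 ± 0.13) lower.

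Endothelial genes were also higher in PVASCs, 17 of 20, with 2 lower and 1 not called. Pecam1 (CD31) was at 179.7, 177 and 182 CPM in PVASCs and 43.3, 46.1 and 46.4 CPM in Sub-ASCs, and VE-cadherin, Cdh5, at 209 ± 1.90 against 46.5 ± 2.40 CPM. Emcn, a sialomucin of capillaries and veins, was at 279 ± 6.06 against 20.2 ± 1.44 CPM. The receptors Flt1 (VEGFR1, 2.27 ± 0.07) and Kdr (VEGFR2, 1.23 ± 0.09) were higher, whereas the tight junction gene Cldn5 (-3.50 ± 0.18) and the angiopoietin receptor Tek (-1.63 ± 0.08) were lower in PVASCs. The summed level of the list was 1675 to 1710.0 CPM in PVASCs and 424 to 449.9 CPM in Sub-ASCs. By flow cytometry, cultured PVASCs of the study were described as negative for the Pecam1 protein, and the part of endothelial cells in these RNA values was not tested here.

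A list of ligands that act on vessels, which also holds non-ligands such as the enzyme gene Ace, went mostly the other way. Of its 23 genes, 18 were lower in PVASCs, 4 higher and 1 not called. Vegfd, a growth factor of lymphatic vessels, was at 31.9, 33.8 and 33.7 CPM in PVASCs and 527, 543 and 523 CPM in Sub-ASCs. Vegfa had a log2 fold change of -1.12 ± 0.05 and Angpt1 of -2.70 ± 0.19. Ace, the angiotensin-converting enzyme, was at 35.2 ± 0.996 against 2207 ± 17.7 CPM, and the angiotensin receptor Agtr1a had a log2 fold change of -5.85 ± 0.11. The anti-angiogenic thrombospondins parted, since Thbs1 was at 7571, 7672 and 7559.6 CPM in PVASCs and 538, 569.7 and 538 CPM in Sub-ASCs, while Thbs2 was at 628 ± 8.70 against 5979 ± 51.3 CPM. Endothelin 1, Edn1, was higher in PVASCs (2.82 ± 0.07).

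Glial and neuronal genes were low in level and mostly higher in PVASCs, 9 of 11 tested, with 1 lower (log2 fold change -1.9) and 1 not called. Sox10, the factor of the neural crest and Schwann cells, was at 11.3, 13 and 11.5 CPM in PVASCs and 0.515, 0.904 and 0.496 CPM in Sub-ASCs. The neural crest factor Foxd3 had a log2 fold change of 3.20 ± 0.28 and the tubulin Tubb3 of 2.57 ± 0.07, whereas S100b was at 1.43 ± 0.403 and 1.04 ± 0.157 CPM and was not called. The summed level of the 12 genes was 142 to 147 CPM in PVASCs and 22.9 to 24.5 CPM in Sub-ASCs, most of it from Tubb3, and the part of nerve cells in the result was not tested. Bdnf was at 68.6, 61.2 and 60.9 CPM in PVASCs and 1.12, 1.26 and 0.877 CPM in Sub-ASCs, while the BDNF receptor gene Ntrk2 was at 2.0 ± 0.527 against 185 ± 6.42 CPM.

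Matrix genes went both ways. Of 25 collagen genes, 13 were higher in PVASCs, 11 lower and 1 not called. Col3a1, the collagen of pliable tissue, was at 1127, 1110.3 and 1089 CPM in PVASCs and 9125, 8735 and 9459 CPM in Sub-ASCs, and the beaded filament genes Col6a1 (-1.72 ± 0.05), Col6a2 (-2.10 ± 0.06) and Col6a3 (-1.60 ± 0.05) were lower. Col1a1 differed little (-0.41 ± 0.04). The basement membrane collagen Col4a1 (0.88 ± 0.05), the vessel-associated Col15a1 (2.24 ± 0.05) and Col8a1 (2.52 ± 0.10) and the cartilage collagen Col11a1, at 51.3 ± 2.74 against 0.199 ± 0.0329 CPM, were higher. Of 31 laminin, nidogen and integrin genes, 17 were higher and 10 lower. The fibronectin receptor chain Itga5 was at 767 ± 20.7 against 169 ± 9.49 CPM with its ligand Fn1 at 10125 ± 326 against 3534 ± 73.3 CPM, and the laminin receptor chains Itga3 (2.77 ± 0.10) and Itga6 (2.75 ± 0.08) went the same way, whereas Lama4 (-2.30 ± 0.05) and the collagen receptor chain Itga11 (-1.91 ± 0.05) were lower.

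Small leucine-rich proteoglycans, which space collagen fibrils, were 3 higher, 5 lower and 2 not called of 10 tested. Decorin, Dcn, was at 115, 107 and 114 CPM in PVASCs and 8444, 9675 and 8453 CPM in Sub-ASCs, 79.3-fold apart, and Lum (-6.79 ± 0.14) and Ogn (-3.02 ± 0.11) went with it, while biglycan, Bgn, was abundant in both groups (0.50 ± 0.07). Of 21 proteases and inhibitors of the matrix, 17 were lower in PVASCs and 3 higher. Stromelysin, Mmp3, was at 295, 294 and 295 CPM in PVASCs and 4985, 5229 and 4986 CPM in Sub-ASCs, gelatinase Mmp2 at 263 ± 6.67 against 3158 ± 41.7 CPM and the aggrecanase Adamts15 at 1.95 ± 0.0574 against 367 ± 9.93 CPM. Of the 3 that were higher, 2 were the inhibitors Timp1 (1.96 ± 0.09) and Timp3 (3.68 ± 0.05), and the third was Mmp10 (2.36 ± 0.10). Elastic fibre genes were split 9 to 11, with elastin itself, Eln, at 3.17 ± 0.200 against 43.5 ± 3.69 CPM and the latent TGF-beta binding protein Ltbp2 at 589 ± 12.6 against 57.4 ± 3.04 CPM.

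Osteopontin, Spp1, gained more FPKM than any other protein-coding gene in PVASCs. It was at 10508, 10050.5 and 10407 CPM in PVASCs and 172, 192 and 169.8 CPM in Sub-ASCs, a 58.0-fold difference. Matrix Gla protein, Mgp, which keeps arteries from calcifying, was at 643, 649 and 676 CPM in PVASCs and 1.16, 1.18 and 1.18 CPM in Sub-ASCs, 559-fold apart. Both are secreted and are made by smooth muscle among other cells.

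Most genes of fat storage, and some markers of the least committed progenitors of fat, were lower in PVASCs. Pi16, such a marker, was at 5.29, 5.32 and 5.44 CPM in PVASCs and 862, 823 and 878 CPM in Sub-ASCs, and Dpp4, of the same cells, at 1.39 ± 0.245 against 71.0 ± 1.91 CPM. Of 20 genes of the progenitor hierarchy, 13 were lower in PVASCs, 6 higher and Cd55 was not called. Cd24a, found on early progenitors, went the other way at 153 ± 5.18 against 6.71 ± 0.868 CPM. The summed level of the list also went the other way, at 3684 to 3752 CPM in PVASCs and 3283 to 3431 CPM in Sub-ASCs, with Col4a1 as its most abundant member. Of 22 adipocyte genes tested, 20 were lower in PVASCs, with a median of -1.44. Lipoprotein lipase, Lpl, was at 109, 108 and 110.2 CPM in PVASCs and 3738, 3997 and 3714 CPM in Sub-ASCs, and the regulator Cebpa had a log2 fold change of -2.49 ± 0.08 and Pparg of -0.76 ± 0.07. The defining genes of mature fat cells were low in both, with Adipoq at 0.0638 ± 0.0301 and 0.667 ± 0.210 CPM and no read of Lep or Ucp1 in any of the 6 libraries. Dio2, the deiodinase that activates thyroid hormone, was the member higher in PVASCs (3.10 ± 0.12), and 2 members were called higher without Sub-ASC replicate 3. Chemerin, Rarres2, an adipokine among the 15 largest differences, was at 1587, 1409 and 1626 CPM in Sub-ASCs and 0.489, 0.305 and 0.159 CPM in PVASCs, and 33.6% of its exon bases lie under exons of Lrrc61 on the opposite strand.

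All 31 genes of cholesterol and fatty acid synthesis were lower in PVASCs, with a median of -1.34 and 24 of them by at least 1. Hmgcs1 was at 85.3, 83.7 and 81.9 CPM in PVASCs and 286, 301 and 287 CPM in Sub-ASCs. The desaturase Scd2 (-1.46 ± 0.05), the squalene epoxidase Sqle (-1.40 ± 0.07) and the master regulator Srebf2 (-0.96 ± 0.05) were lower too.

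Genes of glycolysis and the hypoxia response leaned to Sub-ASCs, and those of oxidative phosphorylation to PVASCs. Of 26 tested in the first list, 18 were lower in PVASCs, 3 higher and 5 not called, with 9 lower by at least 1. The aldolase isozyme Aldoc (-3.80 ± 0.19) had the largest difference. The hypoxia-inducible Bnip3 (-1.75 ± 0.06) and Ndrg1 (-2.19 ± 0.06) and the enolase isozyme Eno2 (-2.49 ± 0.07) were also lower, whereas Ldha (-0.18 ± 0.07) and Pkm (-0.18 ± 0.07) were close to equal and lost their calls with DESeq2. Of 34 subunits of oxidative phosphorylation, 24 were higher, 2 lower and 8 not called. Only Cycs (1.36 ± 0.07) was higher by at least 1, and 1 member was lower by at least 1, at -1.68. Cytosolic ribosomal proteins were 18 higher and 19 not called of 37, with a median of 0.24. That count depended on the fit: 29 were called higher without the low-count filter, 30 in a fit of the 6 libraries alone and 10 without Sub-ASC replicate 2, and 1 was called lower in the first 2 of these fits and without PVASC replicate 3. Antioxidant and metallothionein genes were 8 higher, 13 lower and 2 not called of 23. Of these, Gpx3 was at 163 ± 1.74 against 3445 ± 103 CPM and Sod2, which interferon and NF-kB also induce, at -3.08 ± 0.07, while the quinone reductase Nqo1 was at 215, 228 and 227 CPM in PVASCs and 8.33, 8.29 and 9.88 CPM in Sub-ASCs.

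Several transcription factors that mark body position were read in 1 group only. Tbx20 (chromosome 9, 24718138 to 24774303, minus strand), a T-box factor of the heart and its lining, was at 12, 11.9 and 11.5 CPM in PVASCs and had no read in Sub-ASCs, so it was at least 98.1-fold higher. Tbx15, which patterns the trunk and skin, stood the other way at 13.6, 13.3 and 14.4 CPM in PVASCs and 127, 122 and 124 CPM in Sub-ASCs, and Tbx5 (-2.10 ± 0.11) and Tbx3 (-1.37 ± 0.08), of the limb and heart, were lower too. Of 9 T-box genes tested, 3 were higher, 4 lower and 2 not called. Of 19 factors of cardiac and visceral mesoderm, 17 were higher in PVASCs, 1 was lower and 1 was not called. Gata4 was at 11.2, 11.7 and 12.7 CPM in PVASCs and had 1 read in the Sub-ASC libraries together. Tcf21, of the epicardium and visceral fat, was at 5.08 ± 1.24 against 0.0703 ± 0.0900 CPM, Gata2 at 47.8 ± 1.83 against 3.36 ± 0.705 CPM and Foxf2 had a log2 fold change of 1.99 ± 0.09. Gata6 was close to equal (0.20 ± 0.06) and Mef2c was not called. The member that was lower was the LIM factor Lhx2, at 0.0748 ± 0.0182 against 0.632 ± 0.151 CPM.

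Homeobox factors of the limb and body wall leaned to Sub-ASCs, with 12 of 22 tested lower in PVASCs and 8 higher. Pitx1, a factor of the hindlimb, was at 3.69, 3.26 and 3.62 CPM in Sub-ASCs and had no read in PVASCs, at least 36.6-fold apart. Irx1 was at 1.31, 1.02 and 1.72 CPM in PVASCs and 72.1, 73.9 and 75.5 CPM in Sub-ASCs, and En1 (-3.02 ± 0.11), Shox2 (-2.92 ± 0.09) and Alx4 (-3.44 ± 0.15) followed. Meox1 (3.35 ± 0.14) and Meis2 (1.11 ± 0.07) were higher in PVASCs. By the rule of largest fold, the forebrain factor Dlx2 was at 9.97, 8.30 and 8.72 CPM in PVASCs, with no read in Sub-ASCs.

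**Figure D4:**
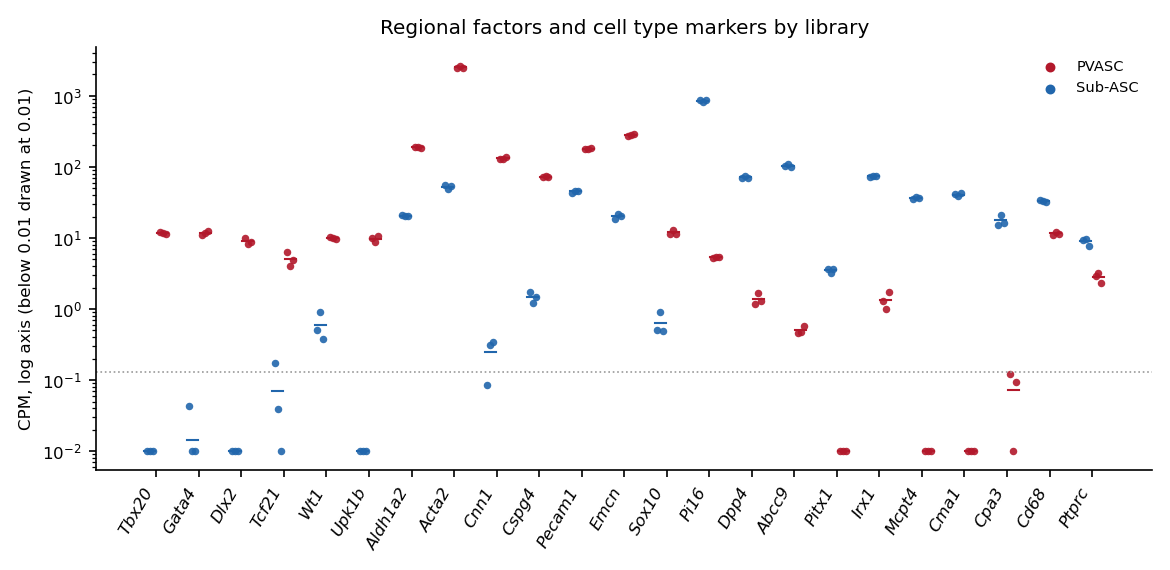
CPM of 23 regional factors and cell type markers in each PVASC (red) and Sub-ASC (blue) library on a log axis, with bars at group means and values under 0.01 drawn at 0.01. The dotted line is 3 reads in the shallowest of the 6 libraries. From Tbx20 to Sox10 all PVASC points lie above the Sub-ASC points, and from Pi16 to Ptprc all lie below.

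Hox genes, whose order along each chromosome cluster follows their order along the body, differed by cluster and by position. In HoxA, the genes from Hoxa2 to Hoxa7 were higher in PVASCs and Hoxa9 (-1.98 ± 0.11) and Hoxa10 were lower, the latter at 0.367, 0.305 and 0.414 CPM in PVASCs and 19.4, 18.5 and 17.6 CPM in Sub-ASCs. Hoxa5 was at 53.1, 46.1 and 45.6 CPM in PVASCs and 5.84, 6.64 and 6.44 CPM in Sub-ASCs. In HoxB, 7 of 9 tested were higher, up to Hoxb9 at 25.8 ± 1.76 against 1.5 ± 0.169 CPM, Hoxb7 was not called, and Hoxb13 had no read in PVASCs. In HoxC, 6 of 8 were lower and none was higher. Hoxc10 was at 0.306, 0.271 and 0.191 CPM in PVASCs and 39.8, 34.7 and 36.6 CPM in Sub-ASCs, 145-fold apart, and Hoxc11 was at 6.05, 5.86 and 5.61 CPM in Sub-ASCs with no read in PVASCs. Of the 3 HoxD genes with enough reads, Hoxd9 (1.25 ± 0.16) and Hoxd10 (2.75 ± 0.43) were higher and Hoxd8 (-0.35 ± 0.10) lower.

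**Figure D5:**
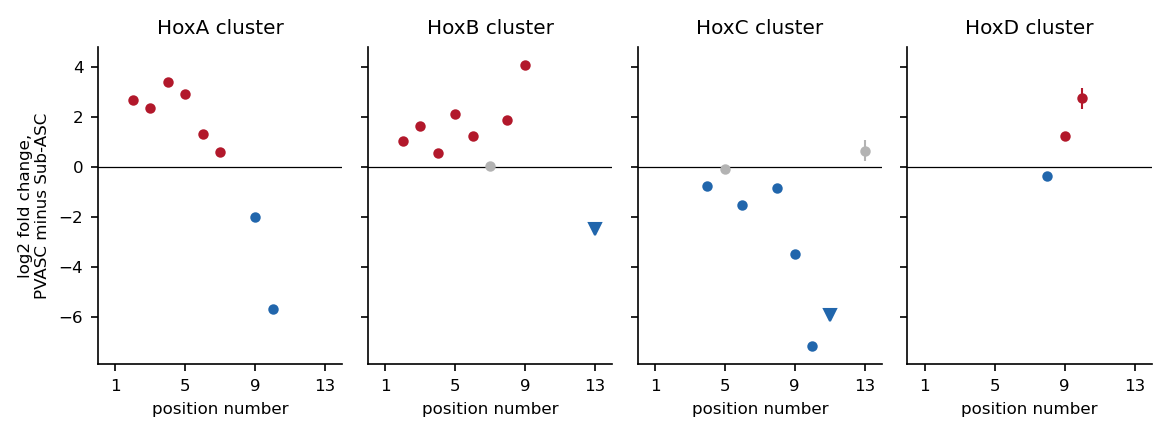
Log2 fold change of tested Hox genes, in HoxA from position 2 on, against its position number in the HoxA, HoxB, HoxC and HoxD clusters, PVASC minus Sub-ASC, with approximate standard errors as bars, which are often smaller than the points. Red points were called higher in PVASCs, blue points lower and grey points neither, and triangles are genes without a read in PVASCs, drawn at the bound set by 3 reads in each library. HoxA changes sign between positions 7 and 9.

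Mesothelial genes, of the sheet that covers body cavities and the heart, were higher in PVASCs for 12 of 19 tested, with 4 lower and 3 not called. Wt1 was at 10.3, 9.90 and 9.57 CPM in PVASCs and 0.515, 0.904 and 0.381 CPM in Sub-ASCs. Upk1b was at 10, 8.68 and 10.6 CPM in PVASCs and had no read in Sub-ASCs, and Upk3b was at 3.35 ± 0.295 against 0.0647 ± 0.0598 CPM. Aldh1a2, which makes retinoic acid, was at 188 ± 3.49 against 20.7 ± 0.276 CPM. The defining marker mesothelin, Msln, was at 0.443 ± 0.153 CPM in PVASCs with 1 read in Sub-ASCs, and the keratin Krt8 was at 0.266 ± 0.10 and 0.384 ± 0.328 CPM. The summed level of the 22 genes was 459.9 to 477 CPM in PVASCs and 432 to 435 CPM in Sub-ASCs, most of it from Efemp1 and Aldh1a2, and the part of mesothelial cells in these values was not tested.

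Fetal and imprinted genes linked to growth were mostly higher in PVASCs, 16 of 20, with 4 lower, down to a log2 fold change of -5.29. Hmga2, a chromatin protein of fetal and growing tissue, was at 534, 517 and 511 CPM in PVASCs and 41.3, 46.9 and 39.7 CPM in Sub-ASCs. Igf2bp1 (4.87 ± 0.18) and the imprinted Dlk1 (5.76 ± 0.13), Meg3 (2.82 ± 0.11), Rian (3.95 ± 0.06) and Mest (3.31 ± 0.12) went with it, and Lin28b was at 0.470 ± 0.0223 CPM with no read in Sub-ASCs. Igf2 had too few reads to test. Dlk1, Meg3, Rian and Mirg lie in the same imprinted cluster and are not separate evidence.

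Of 42 TGF-beta and BMP genes tested, 20 were higher in PVASCs, 17 lower and 5 not called. Among ligands, Inhba (activin A) was at 534, 521 and 540.3 CPM in PVASCs and 38.0, 40.7 and 37.4 CPM in Sub-ASCs, Tgfb3 had a log2 fold change of 2.11 ± 0.06, Bmp4 of 3.03 ± 0.10 and Gdf6 of 4.86 ± 0.17, while Gdf10 was at 0.583 ± 0.164 against 119 ± 3.04 CPM. The receptor Tgfbr2 (-2.33 ± 0.05) and the coreceptor Tgfbr3 (-2.52 ± 0.05) were lower. Of the targets, Smad7 (1.09 ± 0.07) and Id1 (1.81 ± 0.09) were higher. The BMP antagonist Grem1 was at 742 ± 11.3 against 78.0 ± 2.39 CPM.

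Of 37 Wnt genes tested, 19 were higher, 13 lower and 5 not called. Wnt16 was at 176, 163 and 166 CPM in Sub-ASCs and had 5 reads in the PVASC libraries together, whereas Wnt5a, which acts apart from beta-catenin, was at 70.4, 62.9 and 63.3 CPM in PVASCs and 7.81, 5.86 and 5.45 CPM in Sub-ASCs. Antagonists split, with Sfrp2 (-6.28 ± 0.08) and Sfrp4 (-4.07 ± 0.12) lower and Frzb (5.86 ± 0.11) and Dkk2 (3.86 ± 0.12) higher in PVASCs. The targets and effectors did so too, since Axin2 was at 1.07 ± 0.320 against 22.0 ± 0.777 CPM and Lef1 at 3.41 ± 0.0806 against 0.118 ± 0.0627 CPM. The Hedgehog list had 12 tested members, with 7 lower in PVASCs and 5 higher, and its summed level was 295 to 303 CPM in PVASCs and 773 to 781 CPM in Sub-ASCs. The ligand Dhh (2.95 ± 0.26) was higher in PVASCs, Shh was at 1.06 ± 0.366 CPM with no read in Sub-ASCs, the target Hhip was at 6.85, 6.74 and 7.13 CPM with 1 read in Sub-ASCs, and the coreceptors Gas1 (-3.38 ± 0.05) and Boc (-1.45 ± 0.06) were lower.

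FGF genes were 10 higher, 3 lower and 4 not called of 17 tested. Fgf1 was at 20.9 ± 0.380 against 0.396 ± 0.128 CPM and Fgf5 at 7.84 ± 1.13 against 0.237 ± 0.0927 CPM, the feedback gene Spry1 had a log2 fold change of 2.34 ± 0.08 and the target factor Etv4 was at 42.2, 42.5 and 41.0 CPM in PVASCs and 1.72, 1.65 and 1.18 CPM in Sub-ASCs, while the receptor Fgfr1 was lower (-1.14 ± 0.05). Notch genes were 11 higher, 3 lower and 3 not called of 17, with the ligand Jag1 (1.30 ± 0.07) and the targets Hes1 (1.18 ± 0.08) and Heyl (1.95 ± 0.18) higher and the ligand Dll4 (-4.21 ± 0.35) lower in PVASCs. The IGF system had 5 members higher, 6 lower and 2 not called of 13. Igf1 was lower (-1.70 ± 0.07) with its binding protein Igfbp4 at 113 ± 3.36 against 1016 ± 40.5 CPM, and Igfbp2 (4.07 ± 0.12) and the protease Pappa (3.15 ± 0.16) that frees IGF were higher.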

How the data were processed

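Bulk mRNA sequencing of 9 cultured ASC libraries was analysed, 3 from each of 3 adipose depots, and PVASC and Sub-ASC libraries were grouped by the tissue in the labels. The values that the authors deposited are whole-number counts of each gene in each library, neither normalized nor filtered. The submitters' processing notes list CASAVA 1.8, Bowtie 0.12.2 and featureCounts 1.5.0-p3 and the builds mm8 and mm10, with no role for each. The listed positions match GRCm38, with the same start and end as GENCODE M21 for 53499 of 54532 genes (98.1%). The strand setting, treatment of shared reads and sequencing batches are not given in the sources used here.

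Here, counts were tested with edgeR 4.0.16 (R 4.3.3) using TMM, filterByExpr and the quasi-likelihood F-test in 1 fit of all 9 libraries without covariates, with Benjamini-Hochberg adjustment over all 16526 genes tested. CPM, FPKM (CPM divided by gene length in kilobases) and the approximate standard error (the log2 fold change over the root of F) were calculated here. A fold against a group without a read uses 3 reads in each of its libraries. Depth limits the precision of low values, and these bounds cover counting error only. The self-test on simulated counts, in which few genes were changed and only well-read ones, recovered most of them before use. It does not cover data in which most genes differ.

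Genes were named if they were in 1 of 54 lists, among the 15 protein-coding genes per direction with the largest fold and at least 5 CPM, or among the 10 per direction with the largest difference in FPKM, and a few of these genes are not reported here. The lists and members were chosen with earlier results of these data known, and 2 lists (mast cell, T and natural killer cell) were added once the data were known. Lists are described by counts and were not tested. Motifs were searched in RefSeq promoters of GRCm38.p6, and printed windows lie in no GENCODE M21 exon. Replicate numbers were checked as pairs by correlating deviations from the group means. Alternatives were DESeq2 1.42.0, RLE size factors, testing without a filter on low counts, a stricter filter (10 reads or more throughout a group), fitting the 2 groups by themselves, a replicate block, a cutoff of 1 on the log2 scale, and dropping libraries in turn. Tables and plots were made with Python, pandas and matplotlib.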

Additional observations from a re-analysis of the deposited data

How the results depend on the processing

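The number of genes called was 11628, with 5735 higher and 5893 lower in PVASCs. Calls numbered 11425 with DESeq2, 11624 with RLE size factors, 12776 without the low-count filter, 11611 with at least 10 reads in every library of a group and 12427 in a fit of the 2 groups alone. The share of calls that were higher in PVASCs stayed between 49.1% and 50.4% in these fits. When each library was left out in turn, 10954 to 11040 genes were called, of which 5420 to 5458 were higher and 5510 to 5604 lower, and 92.1% to 92.6% of the 11628 calls made with all libraries were called again. With a log2 fold change of at least 1 required, 5328 genes were called, 2591 higher and 2737 lower, since the smaller calls were dropped.

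Same-numbered PVASC and Sub-ASC libraries deviated together only weakly (correlations across 16526 genes of 0.0309, 0.0271 and 0.0226), below what was asked for a pairing, although each library correlated best with its own number. With a replicate block, 11458 genes were called, 5654 higher and 5804 lower.

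No named gene changed direction among those called. In single genes, 58 calls were lost and 3 gained over all alternatives, 27 of the losses by requiring a log2 fold change of at least 1. The others were losses of Ifng (adjusted p = 0.21 with DESeq2), Ddx3y, Ldha, Pkm, Cdc7 and Pola2 and gains of Irf3 and Synpo2, all but Ifng with log2 fold changes of 0.4 or less in size. Of the list counts, 1353 stayed within 1.5 times and 51 did not, 34 of them with the fold requirement. The cause of these changes was not tested. A gene with fewer than about 3 reads in a library cannot be told from one without reads at this depth.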

Other observations

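Gene groups not described above were read in the same fit. Axon guidance genes were 20 higher, 15 lower and 2 not called in PVASCs of 37 tested, against 34.7% higher and 35.7% lower over all genes. The netrin receptor Unc5b was at 309 ± 4.18 CPM in PVASCs and 27.4 ± 1.93 in Sub-ASCs and Slit2 at 386 ± 3.17 against 50.9 ± 1.40 CPM, while Slit3 (-1.58 ± 0.04) and the netrin gene Ntn1 (-2.57 ± 0.06) were lower. The receptor tyrosine kinase Epha2 had a log2 fold change of 3.52 ± 0.07. Retinoic acid genes were 7 higher and 8 lower of 15, with the receptor Rarb (2.32 ± 0.16) higher and the plasma carrier Rbp4 (-4.73 ± 0.15) lower.

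Bone and cartilage genes were 9 higher, 6 lower and 1 not called of 16 tested. The cartilage collagen Col2a1 was at 10.3, 11.4 and 11.7 CPM in PVASCs and 0, 0.0393 and 0.114 CPM in Sub-ASCs and Sox9 had a log2 fold change of 1.26 ± 0.08, whereas Runx2 was close (0.48 ± 0.09) and Runx1 lower (-0.68 ± 0.06). Cadherins and factors of mesenchymal transition were 9 higher, 6 lower and 1 not called of 16. N-cadherin, Cdh2 (1.64 ± 0.06), was higher in PVASCs and Twist1 (-1.38 ± 0.07) and Snai2 (-0.71 ± 0.07) were lower, and Epcam had too few reads to test. Striated muscle genes were low in both groups, at a summed level of 22.0 to 24.6 CPM in PVASCs and 12.2 to 13.3 CPM in Sub-ASCs, with 12 of 23 tested, 4 higher, 5 lower and 3 not called, and the highest was Acta1 at 13.5 ± 1.63 against 1.09 ± 0.119 CPM. Of 15 epithelial genes, 6 were tested, 2 were higher, 2 lower and 2 not called, with 1 lower when PVASC replicate 1, Sub-ASC replicate 2 or Sub-ASC replicate 3 was left out, with the stricter filter and in the fit of the 2 groups alone. Krt5 and Krt17 had no read in the 6 libraries. The neuronal pentraxin Nptx2, first in fitted fold among genes higher in PVASCs with at least 5 CPM, was at 26.9, 25.2 and 24.9 CPM there with no read in Sub-ASCs, at least 213-fold.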
